A study of Mus musculus with 10 samples.

Results

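The circadian clock genes were examined in RNA-seq counts of the mouse cochlea. They were the 10 genes Arntl, Clock, Per1, Per2, Per3, Cry1, Cry2, Nr1d1, Nr1d2 and Dbp, chosen by gene name out of the 54532 genes in each count file, and all 10 passed the filter on low counts that left 18329 genes to test. Whole cochleae of mtKeima mice aged 12 months were used, transgenic animals that carry a pH-dependent fluorescent protein in their mitochondria. In 5 NR-treated mice the drinking water held 7 mg/ml (24 mM) nicotinamide riboside (NR), a precursor of NAD+, from 2 months of age and for 10 months, whereas 5 non-treated mice had regular water. All mice were on a mixed genetic background, were wild type for the cadherin23 and Nnt genes and, per the study's methods, were kept on a light-dark cycle and dissected right after their hearing was assessed. The time of day of each dissection is not given in the sources used here. The sample labels call the mice female and the study's methods call them male. Each library held 2 to 8 reads of Xist and 1235 to 1928 reads of the Y-linked Ddx3y, in both groups. With a Y-linked gene read in every library, the counts go with the methods and not with the labels.

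The circadian clock is a feedback loop of transcription that runs in nearly every cell, the cochlea included. ARNTL (also called BMAL1) and CLOCK form the positive arm: as a pair they bind E-boxes and switch on the Per and Cry genes, whose proteins form the negative arm and return to block the pair. The nuclear receptors NR1D1 and NR1D2 (REV-ERB alpha and beta) hold down Arntl in a side loop, and DBP carries the rhythm to output genes through D-boxes. In tissues with a running clock, Arntl RNA therefore peaks when Per and Dbp RNA is low, and the levels of these genes in 1 sample depend on when the sample was taken. NAD+ is tied to the loop through NAMPT, an enzyme of NAD+ synthesis that the clock controls, and SIRT1, an NAD+-dependent deacetylase that acts on clock proteins.

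The loop is closed through sites in promoters, and 4 promoter windows of clock genes in which a motif was found are shown. They are from the negative arm (Per1 and Per3), the side loop (Nr1d1) and the positive arm (Arntl). The sequences are RefSeq windows on GRCm38.p6, the same assembly as mm10, that run from 250 bases before to 50 bases after a transcript start, 5′ to 3′ on the strand of the gene, with every motif found in capitals. The motifs searched on both strands were the E-box (CACGTG), the E′-box (CACGTT), the D-box (TTANGTAA, with C or T at N) and the RORE, the site of ROR and REV-ERB receptors, and no 2 motifs in a window shown overlapped. The Per1 window (chr11:69098699-69098998, + strand) holds an E-box from its base 85, the Per3 window (chr4:151044616-151044915, − strand) holds D-boxes from bases 46 and 93, the Nr1d1 window (chr11:98775328-98775627, − strand) holds an E′-box from base 223, read here on its other strand, and the Arntl window (chr7:113207261-113207560, + strand) holds a RORE from base 277, past the transcript start.
Per1: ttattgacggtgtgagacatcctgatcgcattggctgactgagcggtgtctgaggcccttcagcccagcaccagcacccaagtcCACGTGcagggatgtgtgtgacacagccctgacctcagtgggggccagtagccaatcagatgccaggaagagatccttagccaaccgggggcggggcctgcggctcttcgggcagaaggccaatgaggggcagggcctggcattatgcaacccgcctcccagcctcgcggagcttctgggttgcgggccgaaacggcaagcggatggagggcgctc
Per3: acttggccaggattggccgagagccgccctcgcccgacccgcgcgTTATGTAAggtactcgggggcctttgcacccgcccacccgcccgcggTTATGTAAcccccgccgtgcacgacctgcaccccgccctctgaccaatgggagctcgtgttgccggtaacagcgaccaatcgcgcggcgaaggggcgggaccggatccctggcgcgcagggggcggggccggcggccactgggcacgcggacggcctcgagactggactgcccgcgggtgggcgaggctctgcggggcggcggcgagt
Nr1d1: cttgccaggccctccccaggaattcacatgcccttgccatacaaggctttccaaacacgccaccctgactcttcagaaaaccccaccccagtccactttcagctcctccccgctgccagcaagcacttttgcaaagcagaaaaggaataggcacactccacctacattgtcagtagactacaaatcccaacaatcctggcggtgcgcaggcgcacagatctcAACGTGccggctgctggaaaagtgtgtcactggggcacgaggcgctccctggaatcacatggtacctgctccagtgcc
Arntl: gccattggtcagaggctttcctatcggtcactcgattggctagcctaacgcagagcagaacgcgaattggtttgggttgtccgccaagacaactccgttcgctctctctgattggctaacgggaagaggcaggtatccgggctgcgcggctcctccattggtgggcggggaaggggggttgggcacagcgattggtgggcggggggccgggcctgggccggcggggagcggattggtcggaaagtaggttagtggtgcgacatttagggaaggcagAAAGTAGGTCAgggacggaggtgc
Windows were found for 9 of the 10 genes, 13 windows in all, and Per2 was among the genes without a window. Beside those shown, the Cry1 window held an E-box and an E′-box and the Cry2 window an E′-box. The windows of Clock, Nr1d2 and Dbp held none of these letters, and neither did the other window of Per1 or that of Arntl. Of 32851 windows of this length in the table, 7.15% held an E-box, 4.68% an E′-box, 1.06% a D-box and 0.384% a RORE. A match of letters is a description and not a measured binding site.

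The total count per library lay between 17060379 (NR-treated mouse 5) and 24419230 (non-treated mouse 3), and the clock genes were counted with 104 reads (Arntl in NR-treated mouse 5) to 4467 reads (Nr1d2 in non-treated mouse 3). No 2 libraries of a group had counts that agreed within sampling noise. The defining markers of hair cells, supporting cells, stria vascularis, spiral ganglion and Schwann cells were all detected. Some marker lists differed between the groups at an unadjusted p of 0.05, at which 4.83% of all tested genes were higher and 4.88% lower in NR-treated mice. Of the tested adipocyte markers, 4 of 5 were higher, with a summed level of 67.0 to 198 CPM (counts scaled to a fixed library total) against 16.7 to 62.5 CPM, and so were 6 of 8 skeletal muscle markers, with 18.5 to 701 CPM against 17.0 to 73.3 CPM. Of the supporting cell and tectorial membrane markers 4 of 5 were lower, and of the stria and fibrocyte markers 3 of 5. Muscle markers stood highest in NR-treated mice 3 and 5, with 67.6 and 47.5 CPM of Ckm beside at most 4.32 CPM in the other 8 mice. Supporting cell markers stood highest in non-treated mice 3 and 4, with 39.3 and 34.2 CPM of Tecta beside at most 23.2 CPM. No marker was at 0 in all libraries. In whole tissue, fewer cells of a type and less RNA per cell cannot be told apart.

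Transcripts of all 10 clock genes were present in the cochlea of every mouse. Levels between genes were compared as CPM per kilobase of gene length over the 10 mice. Nr1d1 had the highest mean level (42.5 ± 8.40 CPM per kilobase, SD, n = 10), followed by Dbp (37.6 ± 6.43), Nr1d2 (30.2 ± 3.0) and Per1 (22 ± 6.45). Cry2 (15.8 ± 1.6), Per2 (11.1 ± 2.78) and Per3 (10.2 ± 1.99) came next, and Cry1 (4.85 ± 0.707), Clock (3.58 ± 0.334) and Arntl (1.43 ± 0.324) were the lowest. The ranges over mice of neighbours in this order overlapped, except that every mouse had more Per3 than any had Cry1, and more Clock than any had Arntl. By this measure the 2 members of the positive arm had the lowest mean levels of RNA per length, and the side loop and output genes the highest. The order depends on the gene length used. In CPM, Clock had means of 49.2 in NR-treated and 49.1 in non-treated mice, above the 15.2 and 17.2 of Cry1.

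NR-treated and non-treated mice were compared to see whether long-term NR changed the clock genes. None of the 10 passed the test. In edgeR's quasi-likelihood test with Benjamini-Hochberg adjustment over all 18329 genes, 0 of 10 were called at an adjusted p of 0.05, where 0% of all tested genes were called, and 0 of 10 had an unadjusted p of 0.05, where 9.71% of all tested genes did. DESeq2 called 0 of 10 at an adjusted p of 0.05, where it called 0.52% of all genes it adjusted, and found 0 of 10 at an unadjusted p of 0.05, where it found 6.58%. In 0 of 10 did the groups not overlap, as they did not in 1.65% of all tested genes. The log2 fold change (NR-treated minus non-treated) was above 0 in 3 of the 10 and below 0 in 7, with a median of -0.138 beside -0.009 over all tested genes.

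**Figure D1:**
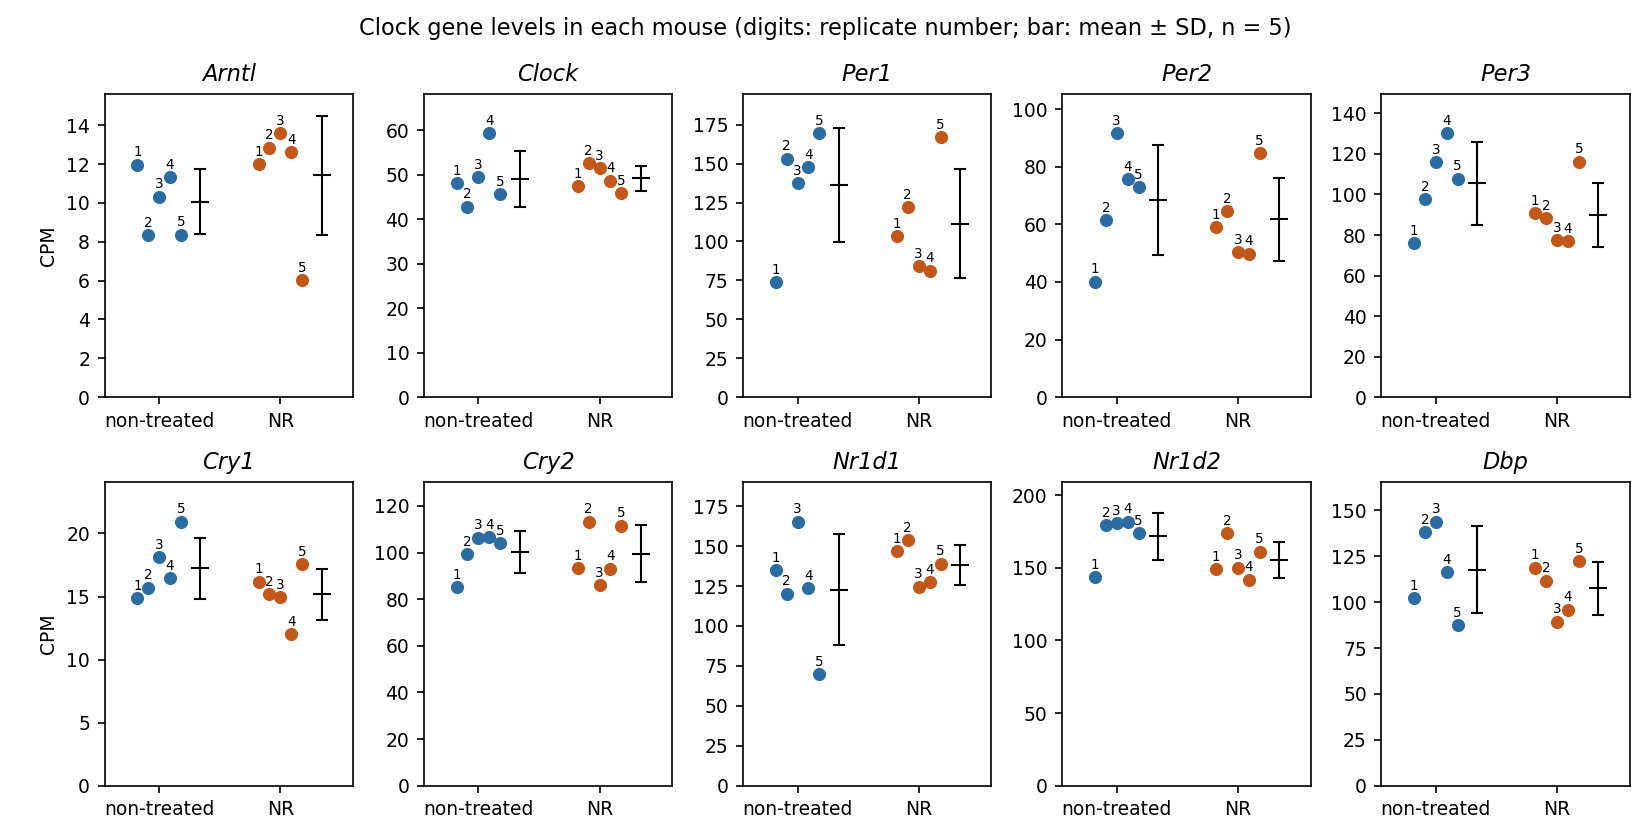
CPM of the 10 clock genes (vertical axes, each from 0) in the 5 non-treated (blue) and 5 NR-treated (orange) mice; each point is 1 mouse with its replicate number, and bars give the mean ± SD. The groups overlap in every panel, and in Per1 the non-treated mice spread from 73.8 to 170 CPM.

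Of the positive arm, Arntl (ENSMUSG00000055116, chromosome 7, 113207465 to 113314126, + strand, mm10) encodes the partner without which the loop stops. Its level was 12.0, 12.8, 13.6, 12.6 and 6.02 CPM in NR-treated mice 1 to 5 and 12.0, 8.35, 10.3, 11.3 and 8.36 CPM in non-treated mice 1 to 5. NR-treated mouse 5 was the lowest of all 10 and the other NR-treated mice were at or above the highest non-treated mouse. The means were 11.4 ± 3.07 and 10.1 ± 1.67 CPM (SD, n = 5 each), and the log2 fold change was 0.18 with a standard error of 0.21 (adjusted p = 0.777, edgeR). Without NR-treated mouse 5 it was 0.35 (adjusted p = 0.648, edgeR; 0.0190 before adjustment). Clock (ENSMUSG00000029238, chromosome 5, 76209868 to 76304792, − strand), its partner, lay between 45.8 and 52.6 CPM in NR-treated mice and between 42.8 and 59.3 CPM in non-treated mice. Its log2 fold change was 0.00 with a 95% interval of -0.18 to 0.19, and with a standard error of 0.085 it was among the most tightly bounded of the 10.

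The Per genes of the negative arm encode the PER proteins, which bind CRY and carry it to the nucleus. Per1 (ENSMUSG00000020893, chromosome 11, 69095217 to 69109960, + strand) was at 103, 122, 84.1, 81.1 and 167 CPM in NR-treated mice 1 to 5 and at 73.8, 153, 137, 148 and 170 CPM in non-treated mice 1 to 5. The lowest and the highest of the 10 mice were both non-treated. The means were 111 ± 35.0 and 136 ± 36.8 CPM, and the log2 fold change of -0.29 had a standard error of 0.24 (adjusted p = 0.702, edgeR; exact two-sided permutation test, p = 0.333, where the labelings of 5 against 5 mice allow no p below 0.00794). Without non-treated mouse 1 it was -0.44 (adjusted p = 0.388, edgeR; 0.0428 before adjustment), and it lay between -0.47 without NR-treated mouse 5 and -0.19 without NR-treated mouse 4.
Per2 (ENSMUSG00000055866, chromosome 1, 91415982 to 91459324, − strand) was at 59.0, 64.5, 50.3, 49.8 and 84.8 CPM in NR-treated mice 1 to 5. In non-treated mice 1 to 5 it was at 40.1, 61.5, 91.7, 75.6 and 73.0 CPM. Again both ends of the range were non-treated, and the log2 fold change was -0.15 with a 95% interval of -0.61 to 0.31. It was -0.01 without non-treated mouse 3 and -0.29 without non-treated mouse 1, the ends of the range with 1 mouse left out. Per3 (ENSMUSG00000028957, chromosome 4, 151003652 to 151044665, − strand) was at 90.7, 88.4, 77.5, 76.9 and 116 CPM in NR-treated mice 1 to 5. In non-treated mice 1 to 5 it was at 76.0, 97.7, 116, 130.3 and 108 CPM. Non-treated mouse 1 was the lowest of all 10, and NR-treated mouse 5 lay among the highest non-treated mice. Its log2 fold change was -0.23 with a standard error of 0.15 (adjusted p = 0.632, edgeR). It had an unadjusted p of 0.0266 without non-treated mouse 1 and of 0.0374 without NR-treated mouse 5, and the adjusted p was 0.341 and 0.648. Without non-treated mouse 4 the log2 fold change was -0.14.

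The Cry genes encode the cryptochromes, the repressors proper of the loop. Cry1 (ENSMUSG00000020038, chromosome 10, 85131700 to 85185064, − strand) lay between 12.0 and 17.5 CPM in NR-treated mice and between 14.9 and 20.9 CPM in non-treated mice, with a log2 fold change of -0.18 and a standard error of 0.12, which became -0.10 without NR-treated mouse 4 or non-treated mouse 5. Cry2 (ENSMUSG00000068742, chromosome 2, 92403646 to 92434043, − strand) lay between 86.1 and 113 CPM and between 85.1 and 106.6 CPM. Its log2 fold change was -0.01 with a 95% interval of -0.21 to 0.19, and its sign turned with total counts for scaling (0.0134) and with all genes of at least 1 read (0.0012). The adjusted p was 0.646 for Cry1 and 0.974 for Cry2 in edgeR. Of the exonic bases of Cry2, 4.67% overlap another gene, and the counting took no account of strand.

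The REV-ERB genes of the side loop encode repressors that compete with ROR receptors for the RORE. Nr1d1 (ENSMUSG00000020889, chromosome 11, 98767932 to 98775333, − strand) was at 147, 154, 125, 128 and 139 CPM in NR-treated mice 1 to 5 and at 135, 120.2, 165, 124 and 69.7 CPM in non-treated mice 1 to 5. Non-treated mouse 5 had the lowest level and the other 9 mice lay between 120.2 and 165 CPM. The log2 fold change was 0.17 with a standard error of 0.18 (adjusted p = 0.763, edgeR), and it was 0.02 without non-treated mouse 5 and 0.32 without non-treated mouse 3. Nr1d1 shares 263 of its 3077 exonic bases with Thra on the other strand, and reads in that stretch could not be assigned to 1 of them. Nr1d2 (ENSMUSG00000021775, chromosome 14, 18204054 to 18239127, − strand) was at 149, 174, 150.02, 142 and 161 CPM in NR-treated mice 1 to 5. In non-treated mice 1 to 5 it was at 143, 179, 181, 182 and 174 CPM. Non-treated mouse 1 lay among the NR-treated mice, while the other 4 non-treated mice had 174 to 182 CPM, where the highest NR-treated mouse had 174 CPM. The log2 fold change of -0.15 had a standard error of 0.077, with the smallest unadjusted p of the 10 (0.0850; adjusted p = 0.561, edgeR). Without non-treated mouse 1 it was -0.20 (adjusted p = 0.255, edgeR; 0.00937 before adjustment), and without NR-treated mouse 2 it was -0.18 (adjusted p = 0.364, edgeR; 0.0418 before adjustment).

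Dbp (ENSMUSG00000059824, chromosome 7, 45705088 to 45710203, + strand), the D-box factor of the output, was at 119, 112, 89.4, 95.9 and 122 CPM in NR-treated mice 1 to 5. In non-treated mice 1 to 5 it was at 102, 138, 144, 116 and 87.6 CPM. The NR-treated range lay inside the non-treated range. The log2 fold change was -0.13 with a standard error of 0.14 (adjusted p = 0.768, edgeR), and with 1 mouse left out it lay between -0.03 without non-treated mouse 3 and -0.22 without non-treated mouse 5. Dbp shares 539 of its 2993 exonic bases with Sphk2 on the other strand.

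The other genes of the clock pathway were a list of 20: relatives of the core factors, further repressors, D-box factors, and the kinases, ubiquitin ligases and proteases that set the stability of PER and CRY. At an adjusted p of 0.05, 0 of 20 were called. At an unadjusted p of 0.05, 0 of the 20 were higher in NR-treated mice and 2 lower, where 4.83% of all tested genes were higher and 4.88% lower. The list had a median log2 fold change of -0.045. The 2 were Usp2, a deubiquitinase of clock proteins, at -0.31 on the log2 scale (standard error 0.14), and Bhlhe41, a repressor at E-boxes, at -0.21 (standard error 0.088), and their adjusted p was 0.504 and 0.488 in edgeR. The count of 2 became 4 without non-treated mouse 1, 3 without NR-treated mouse 2, and 1 without NR-treated mouse 5 or non-treated mouse 2. The count fell to 0 without NR-treated mouse 1, 3 or 4 or non-treated mouse 3, 4 or 5. It was 0 with total counts for scaling. Npas2, which can take the place of CLOCK, had the largest log2 fold change of the list, 0.48 with a 95% interval of -0.17 to 1.13. Of the 3 genes that link NAD+ to the clock, none was called: Nampt had a log2 fold change of -0.09 (95% interval -0.25 to 0.07), Sirt1 of -0.12 (-0.32 to 0.08) and Parp1 of 0.01 (-0.14 to 0.16).

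**Figure D2:**
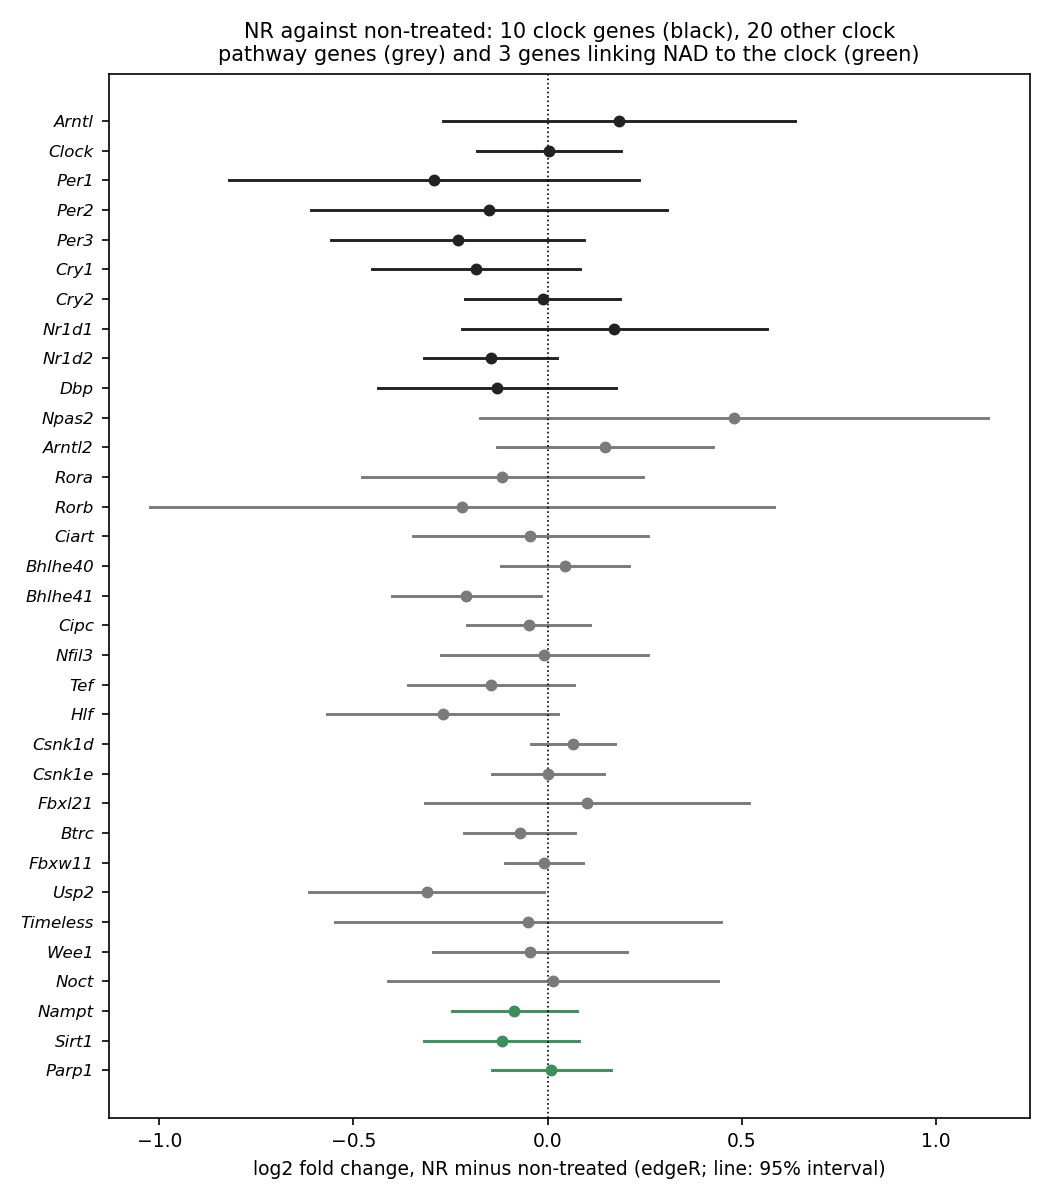
Log2 fold change of NR-treated minus non-treated mice (horizontal axis, points) with its 95% interval from edgeR (lines) for the 10 clock genes (black), 20 other clock pathway genes (grey) and 3 genes that link NAD+ to the clock (green). All 10 black intervals cross 0, and of the grey ones those of Usp2 and Bhlhe41 do not.

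The SD of log2 CPM within groups was ranked among tested genes of similar mean level, in 10 classes of equal size, a grouping chosen after the data were seen. Per1 stood at percentile 97.4 of its class, Per2 at 95.7, Nr1d1 at 95, Per3 at 91.8 and Dbp at 90.3. Arntl (73.5), Cry2 (72.8), Clock (64.0), Nr1d2 (58.2) and Cry1 (56.7) stood lower. Among all tested genes, without regard to level, Per1 stood at percentile 81.6 and Nr1d2 at 31.8. By the SD itself the order differed: Arntl (0.382) came after Per1 (0.452) and Per2 (0.388), ahead of Nr1d1 (0.340), Per3 (0.269) and Dbp (0.253). The cause of the spread was not tested.

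**Figure D3:**
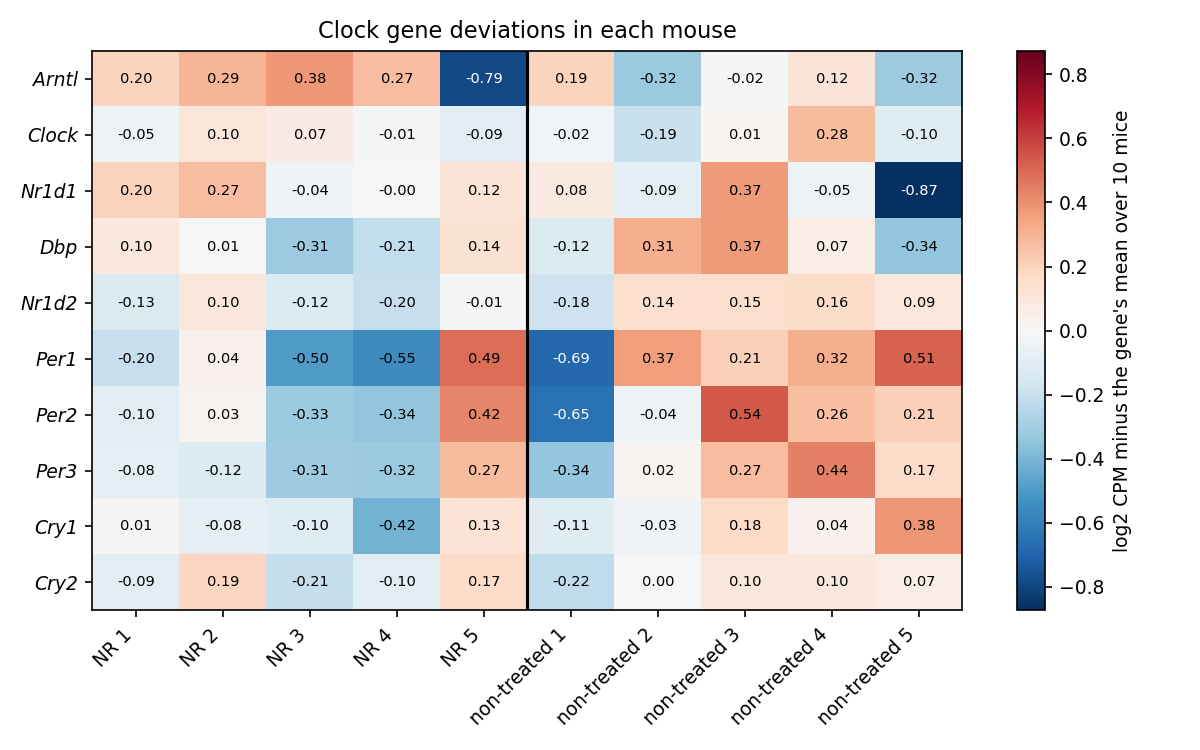
Deviation of log2 CPM from the mean of each gene over 10 mice (colour and printed value) for the clock genes (rows) in each mouse (columns; the line parts NR-treated from non-treated). The Per genes are all below their mean in NR-treated mice 1, 3 and 4 and non-treated mouse 1, and all above it in NR-treated mouse 5 and non-treated mice 3, 4 and 5.

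The relation of the positive and negative arm between mice was examined over all 45 pairs of the 10 genes, as correlations of log2 CPM over the 10 mice with permutation p-values adjusted over the 45 (Benjamini-Hochberg; 100000 resamples). Of the 45 pairs, 7 were called at an adjusted p of 0.05 and all 7 were positive: Per1 with Per2, Per3, Cry1, Cry2 and Nr1d2, and Per2 with Per3 and Cry2. The closest was Per2 with Per3, with Pearson's r = 0.905 (permutation p = 0.00038, adjusted p = 0.0171) and Spearman's rho = 0.915 (permutation p = 0.00051). Without the 2 mice farthest from the median of Per2, r was 0.920. For Per1, r was 0.869 with Per2 (rho = 0.782), 0.877 with Per3 (rho = 0.830), 0.832 with Cry2 (rho = 0.673), 0.841 with Nr1d2 (rho = 0.648) and 0.753 with Cry1 (rho = 0.842). The permutation p of these r values was 0.00128, 0.00191, 0.00463, 0.00513 and 0.00631, and that of the rho values 0.0107, 0.00463, 0.0387, 0.0487 and 0.00385. With rho in place of r, the adjusted permutation p of Per1 with Per2 (0.0595), Cry2 (0.121) and Nr1d2 (0.129) no longer passed. That of Per2 with Cry1 (rho = 0.867) and of Per3 with Cry1 (rho = 0.855) then passed, at 0.0358 for each. Among the Per and Cry genes themselves, 4 of 10 pairs were not called by r: Per2 with Cry1, Per3 with Cry1 and with Cry2, and Cry1 with Cry2, whose r was 0.489. Without the 2 mice farthest from the median of Per1, which were NR-treated mouse 4 and non-treated mouse 1, r was 0.739, 0.792, 0.742, 0.691 and 0.660 over 8 mice, and the last 2 no longer had an exact permutation p of 0.05 (0.0565 and 0.0721). Per2 with Cry2 had r = 0.857 (permutation p = 0.00178) and rho = 0.830 (permutation p = 0.00477), and r = 0.837 without the 2 mice farthest from the median of Per2.

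Non-treated mouse 1, which had the lowest Per1, Per2, Per3 and Cry2, bore on these calls. Without it r lay between 0.766 and 0.902 for the 7 pairs, but with 9 mice left 0 of 45 pairs were called after adjustment. Without NR-treated mouse 1, 3 or 4 or non-treated mouse 3 or 5, 4 pairs were called. As deviations from the group means, Per2 with Per3 (r = 0.930) and Per2 with Cry2 (r = 0.862) were called (adjusted p = 0.0359 for both, from all permutations within groups) and the other 5 had r of 0.716 to 0.873. Against all 18328 other tested genes, the Per genes ranked high in each other's lists: for Per1, Per3 came 8th, Per2 14th, Nr1d2 31st and Cry2 34th by r, and for Per2, Per3 came 4th. These ranks are a description, since genes of 1 library share its depth and tissue make-up.

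**Figure D4:**
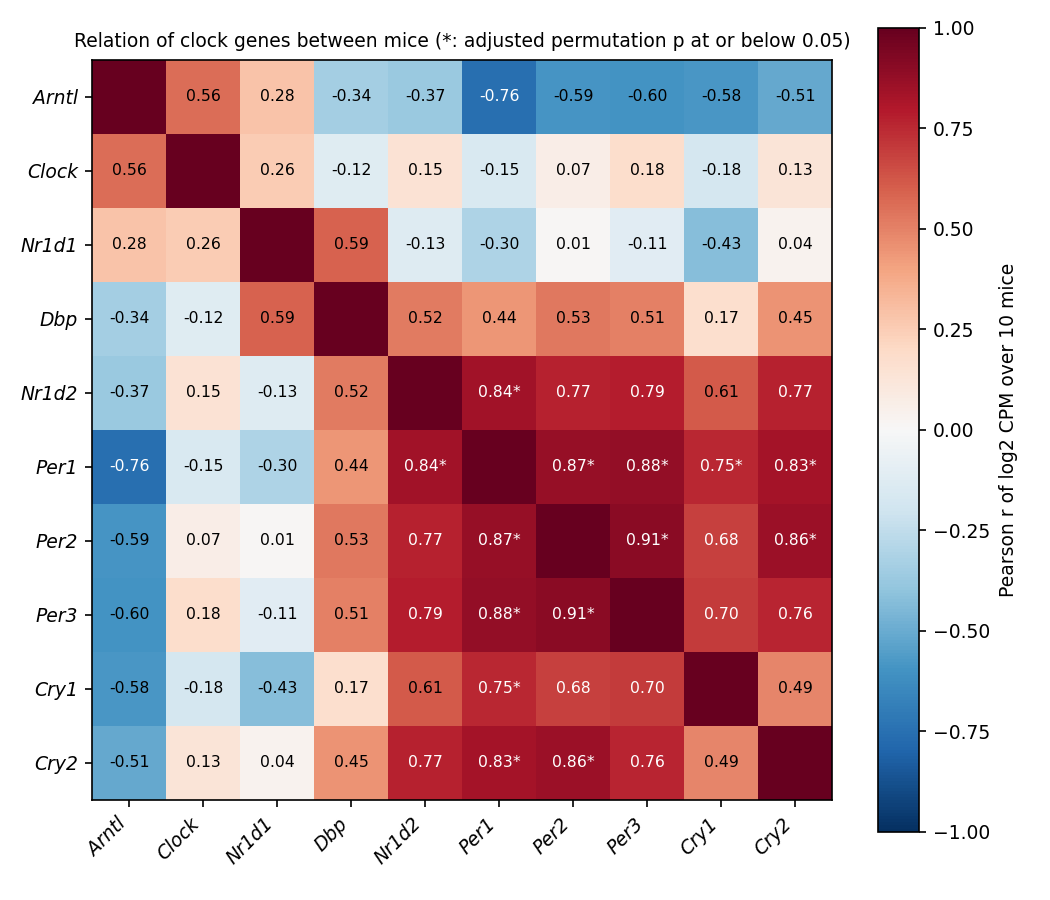
Pearson's r of log2 CPM over 10 mice (colour and printed value, from -1 to 1) for the 45 pairs of clock genes; stars mark an adjusted permutation p at or below 0.05. The Per and Cry genes and Nr1d2 form a block of positive values, all 7 stars lie in it, and the row of Arntl is negative against that block, with -0.76 for Per1.

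Arntl had a negative r with every Per and Cry gene, and none passed the threshold after adjustment. With Per1 it had r = -0.756 (permutation p = 0.00990, adjusted p = 0.0546) and rho = -0.770 (permutation p = 0.0126). The 3 mice with the highest Per1 (non-treated mouse 5, NR-treated mouse 5 and non-treated mouse 2) had the 3 lowest Arntl levels, and the 3 mice with the lowest Per1 had 12.0 to 13.6 CPM of Arntl. Without NR-treated mouse 5 and non-treated mouse 2, the 2 farthest from the median of Arntl, r was -0.745 (exact permutation p = 0.0198), and as deviations from the group means it was -0.746. Leaving out each mouse in turn gave r of -0.813 to -0.717, and without NR-treated mouse 2 the adjusted p was 0.0423. The r of Arntl was also negative with Per2 (-0.586), Per3 (-0.596), Cry1 (-0.582), Cry2 (-0.513), Nr1d2 (-0.370) and Dbp (-0.337), and it was positive with Clock (0.562) and Nr1d1 (0.283). That with Nr1d1 rested on single mice, at 0.019 without non-treated mouse 5 and 0.579 without NR-treated mouse 5. The rho values of these 8 relations were -0.588, -0.673, -0.673, -0.358, -0.406, -0.503, 0.648 and 0.236 in the same order. The permutation p of these r values was 0.0758, 0.0668, 0.0862, 0.128, 0.296, 0.344, 0.0966 and 0.404, and none was called after adjustment. Without NR-treated mouse 5 and non-treated mouse 2, r was -0.58, -0.626, -0.837, -0.413, -0.532, -0.012, 0.367 and 0.666 in that order. Among 18328 other genes, Per1 was the 54th from the lowest r with Arntl.
The same relation was read within each library as the log2 ratio of the counts of Arntl to those of Per1, which does not depend on the scaling between libraries. It was -3.11, -3.25, -2.63, -2.69 and -4.79 in NR-treated mice 1 to 5 and -2.63, -4.20, -3.74, -3.71 and -4.34 in non-treated mice 1 to 5. NR-treated mouse 5 had the lowest ratio of all and non-treated mouse 1 the highest, so the ends of the range were again the mice that stood apart from their own group. The means were -3.29 ± 0.88 and -3.72 ± 0.67 (SD, n = 5 each).

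For Nr1d1 and Dbp no relation was called. Nr1d1 had r = -0.305 with Per1 (rho = -0.333; permutation p = 0.447), and without non-treated mouse 5 this r was 0.135. Its r was 0.008 with Per2, -0.114 with Per3 and -0.126 with Nr1d2, the other REV-ERB gene. Dbp had r = 0.439 with Per1 (rho = 0.273; permutation p = 0.199), which was 0.794 without non-treated mouse 5 (adjusted exact permutation p = 0.0676). With Nr1d1 it had r = 0.592 (permutation p = 0.0532, adjusted p = 0.150) and rho = 0.467. That last relation rested on the 2 mice farthest from the median of Nr1d1, non-treated mice 3 and 5: without them r was 0.058.

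**Figure D5:**
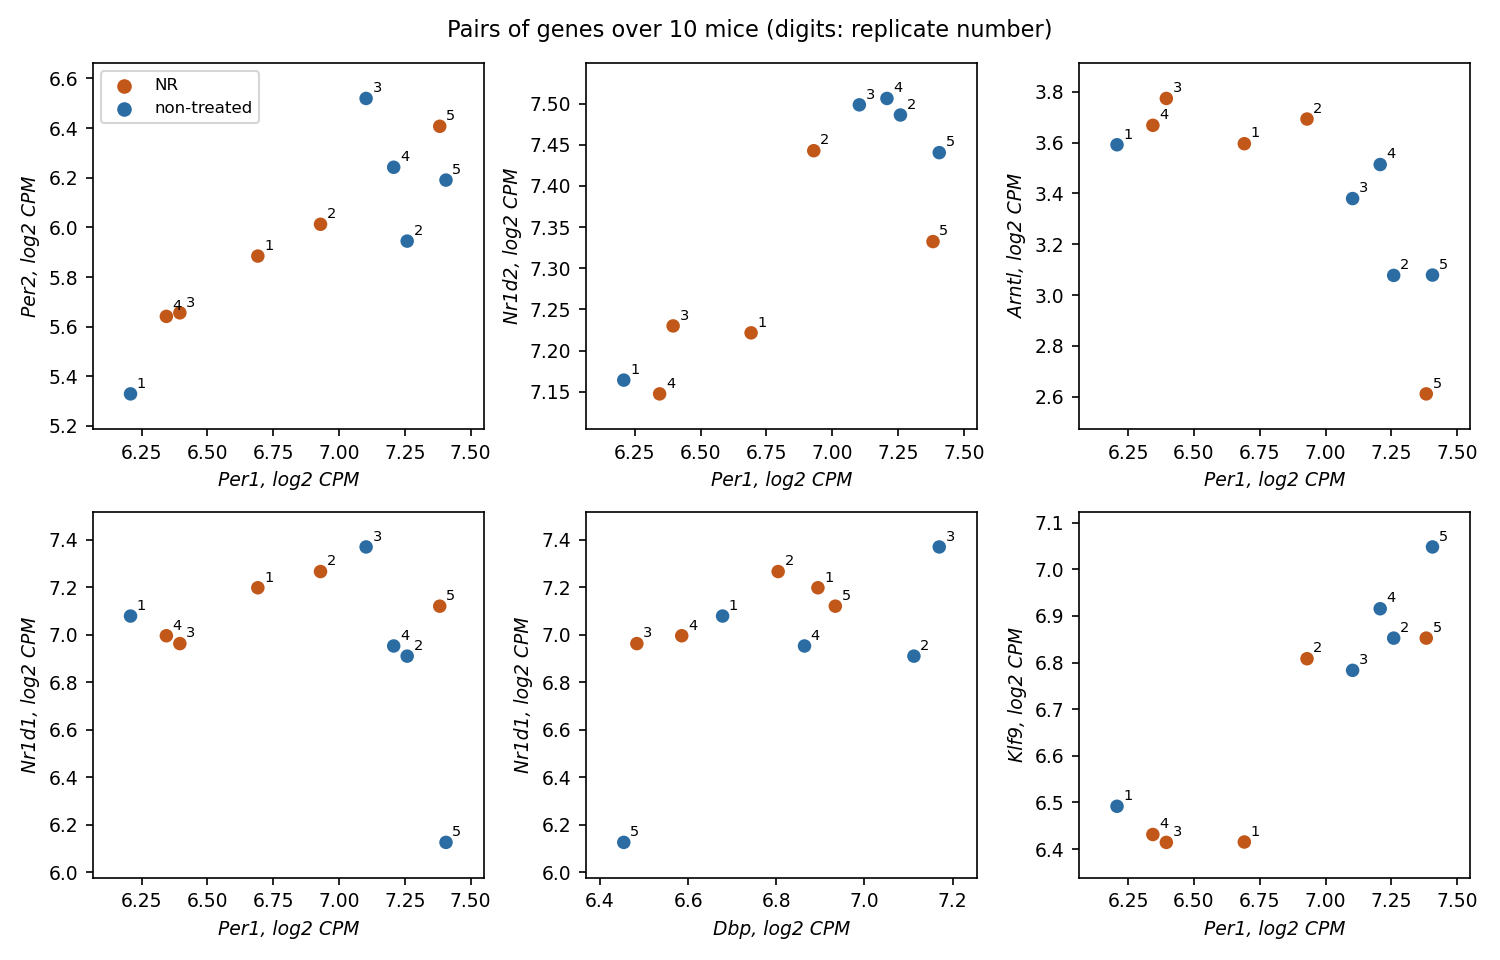
Log2 CPM of pairs of genes over the 10 mice (points with replicate numbers, NR-treated orange, non-treated blue). Over the 10 mice Per1 runs with Per2, Nr1d2 and Klf9 and against Arntl, though its relation with Arntl was not called. Non-treated mouse 5 stands apart in Nr1d1.

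The genes most like the clock genes were sought among all other tested genes by Pearson's r of log2 CPM over the 10 mice. For Arntl the 5 highest were Chordc1 (0.919), Jkamp, Ift74, Itgb6 and Gm45094, and the 5 lowest Ints11 (-0.897), Kbtbd8, Ano8, Grem1 and Brpf1. For Dbp the 5 highest were Polr3d (0.961), Chic2, Card6, Yipf2 and Chst5, and the 5 lowest Pou3f2 (-0.918), Gm45250, Gm11476, Chchd3 and Gm16485. None of these is a gene of the clock lists. For Per1, which was added after its values were seen, the highest were Klf9 (0.916) and Tef (0.912), a D-box factor of the same family as DBP, and the lowest was Cetn4 (-0.926).

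The other clock pathway and NAD+ link genes were set against Arntl and Per1 in the same way. Per1 was taken after its values were seen, and Tef had already appeared among the genes most like it. The adjustment over these relations does not allow for that choice. Of 46 relations, 23 genes with each of them, 1 was called after adjustment, Per1 with Tef (r = 0.912, permutation p = 0.00058, adjusted p = 0.0267; rho = 0.830, permutation p = 0.00493). Without NR-treated mouse 4 and non-treated mouse 1 its r was 0.847. The relation did not pass with rho (adjusted permutation p = 0.0567) or as deviations from the group means (adjusted permutation p = 0.142). The next in size with Per1 were Usp2 (r = 0.866, rho = 0.770, adjusted p = 0.0559 from permutation), Ciart, a repressor of the CLOCK and ARNTL pair (r = 0.798, rho = 0.842, adjusted p = 0.0819 from permutation), and Npas2 (r = -0.745, rho = -0.855, adjusted p = 0.109 from permutation). Npas2 had r = 0.773 and rho = 0.867 with Arntl (permutation p = 0.00896, adjusted p = 0.103), and r = 0.914 without the 2 mice farthest from the median of Arntl. Its level was low, with 5.49 ± 1.67 CPM in NR-treated and 3.95 ± 1.47 CPM in non-treated mice (SD, n = 5 each). Nampt had r = 0.685 with Per1 and -0.114 with Arntl.

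Per1 is known to answer glucocorticoids and neuronal activity as well as the clock, and the mice were dissected after a hearing test under anaesthesia, so its relation with genes of those responses was computed. Per1 was taken after its values were seen, and the glucocorticoid list holds Klf9, the gene with the highest r with Per1. The adjustment below does not allow for that choice. In a family of 30 relations, Arntl and Per1 each with 14 summed lists and the total count, 1 was called: Per1 with the 8 glucocorticoid-responsive genes (r = 0.867, permutation p = 0.00065, adjusted p = 0.0195; rho = 0.927, permutation p = 0.00041). It was 0.884 without NR-treated mouse 4 and non-treated mouse 1, and 0.811 to 0.923 with each mouse left out in turn. Within groups r was 0.860. The summed level of the list was 677 to 834 CPM in NR-treated mice and 631 to 934 CPM in non-treated mice, and of its members 1 was higher (Mt2) and 1 lower (Sgk1) at an unadjusted p of 0.05, where 4.83% of all tested genes were higher and 4.88% lower. Mt2 was near the floor, with means of 0.719 CPM in NR-treated and 0.377 CPM in non-treated mice. The list value is a sum of CPM, so members of high level weigh most in it. Their means in NR-treated mice ran from 216 CPM (Mt1) to 0.719 CPM (Mt2). The members were not alike in their relation with Per1. Klf9, Tsc22d3, Sgk1 and Ddit4 had r of 0.916, 0.836, 0.738 and 0.546. Mt1, Fkbp5, Mt2 and Zbtb16 had 0.256, 0.107, 0.028 and -0.095. Klf9 is also known as a clock-controlled gene.
Per1 with the 10 immediate early genes had r = 0.784 (permutation p = 0.00890, adjusted p = 0.134) and rho = 0.818, and 0.596 without the same 2 mice. Nr4a1, the 1 immediate early gene that was lower at an unadjusted p of 0.05, had r = 0.851 with Per1, and Fos had 0.121. Arntl had r = -0.654 with the glucocorticoid list (adjusted p = 0.425 from permutation). With the summed markers of adipocytes and of skeletal muscle, Per1 had r of -0.385 and -0.330 and Arntl 0.208 and -0.105, and with the total count they had -0.078 and 0.538, all with adjusted permutation p above the threshold. The part of tissue make-up and of the glucocorticoid response in the Per1 values was not tested beyond these relations. Only Per1 and Arntl were set against the summed lists, so Per2 and Per3 were not examined in this way.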

How the data were processed

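RNA-seq of the cochlea was analysed for 10 mice, 5 NR-treated and 5 non-treated, with groups and replicate numbers from the sample titles. The authors deposited raw counts of reads per gene, without normalization: poly(A) libraries made with a kit that does not mark strand were sequenced in pairs by Novogene, aligned to mm10 with STAR version 2.6.1d and counted with featureCounts version 1.5.0 in its default mode. The annotation release is not given in the sources used here. Coordinates in the files matched GENCODE for all 10 clock genes. The gene length in the files was used only for levels per kilobase.

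Counts were tested with edgeR version 4.0.16 in R version 4.3.3 (TMM, filterByExpr, glmQLFit and glmQLFTest, no covariate) on 18329 genes, with Benjamini-Hochberg adjustment; DESeq2 version 1.42.0, newer than that of the submitters' processing notes, was an alternative. Log2 CPM used a prior count of 2. Exact permutation tests were two-sided over all labelings, and relations over 10 mice used 100000 resamples in python version 3.11.15 with numpy version 2.4.6 (all permutations for fewer mice). The scripts were tested on simulated data. The genes named are the 10 clock genes, members of the pathway lists with an unadjusted p of 0.05 or that describe their list, and the 5 genes with the highest and lowest r with Arntl and with Dbp. Beside the 20 genes of the clock pathway list, 2 that it first held are not reported here. The genes and lists were chosen with earlier results of these data known. The labels do not say that mice were housed apart, so p-values measure the spread between these samples. The alternatives were other scalings and filters, another prior count, ranks, deviations from group means, the replicate number as a block, and leaving out each mouse. The libraries held 17060379 to 24419230 counted reads, and mice of a group differed by more than counting error.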

Additional observations from a re-analysis of the deposited data

Results flagged for a closer look

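In 66 groups of 5 mice (33 genes of the clock pathway and its NAD+ link), 7 held a mouse far from the other 4, where the gap to the nearest mouse took most of the range of the group. Among independent groups with a normal spread, chance gives such a mouse in about 1 of 20. The 66 groups share the same 10 mice, so their count cannot be set against that share. Among the clock genes, NR-treated mouse 5 had 6.02 CPM of Arntl beside 12.0 to 13.6 CPM in the other NR-treated mice, and non-treated mouse 1 had 143 CPM of Nr1d2 beside 174 to 182 CPM. NR-treated mouse 5 also had 25.8 CPM of Ciart beside 17.3 to 19.2 CPM, and non-treated mouse 1 had 5.61 CPM of Arntl2 beside 7.19 to 7.81 CPM.

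The other 3 were all NR-treated mouse 2. It had 11.3 CPM of Rorb beside 5.97 to 6.83 CPM, 67.8 CPM of Bhlhe41 beside 54.1 to 57.0 CPM and 144 CPM of Hlf beside 99.9 to 108 CPM.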

How the results depend on the processing

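At an adjusted p of 0.05, 0 of the 10 clock genes and 0 of the 20 other clock genes were called under every alternative tried, while over all genes DESeq2 called 52 higher and 50 lower where edgeR called 0, and leaving out single mice gave 0 to 1 higher. At an unadjusted p of 0.05, edgeR had 886 genes higher and 894 lower. There were 1414 higher with all genes of at least 1 read, and 574 lower with total counts for scaling; the cause was not tested. Leaving out each mouse in turn gave 669 to 1414 higher and 484 to 1059 lower over all genes, 0 to 1 clock genes higher and 0 to 3 lower, 0 to 1 other clock genes higher and 0 to 4 lower, and 0 to 9 of 45 pairs called. It gave log2 fold changes of -0.0294 to 0.0844 for Clock and -0.0608 to 0.0455 for Cry2, and r of -0.813 to -0.717 for Arntl with Per1 and -0.404 to 0.135 for Per1 with Nr1d1. The sign of Cry2 turned with total counts (0.0134) and with all genes of at least 1 read (0.0012), inside its interval.

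The replicate numbers did not pair the mice: the correlations of deviations of same-numbered mice were 0.17, -0.118, -0.22, 0.016 and 0.133. With the replicate block, 1 other clock gene was higher (Npas2) and 1 lower at an unadjusted p of 0.05, r turned to -0.398 for Arntl with Nr1d1 and to 0.117 for Per1 with Nr1d1, and 0 of 45 pairs were called, since that design has few permutations. As deviations from the group means 2 of 45 pairs were called. Of the other clock genes, 0 were lower with total counts for scaling and 1 with all genes of at least 1 read, where 2 were lower in the test as reported. Depth limits Arntl most, with 104 to 314 reads a library.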
